A study of Homo sapiens with 2 samples.

Results

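The transporter gene SLCO4A1, its antisense RNA SLCO4A1-AS1 and 4 related transporter genes, SLCO1B3, SLCO2B1, SLCO3A1 and SLCO4C1, were followed in MDA-MB-231, an established human breast cancer cell line. These 6 genes, of 60774 in the deposited table, were chosen by name from a first look at the values of the same table, so their differences are given as a description and not as a test. RNA sequencing gave 1 library from cells with a vector control and 1 library from cells labelled as over-expressing YWHAB, which encodes an adaptor protein of the 14-3-3 group. Both groups share the line and its medium with fetal bovine serum, and the labels do not say how YWHAB was delivered or whether clones or pools were used. The protocol fields of both libraries also carry text on fat cell induction with insulin, dexamethasone and isobutylmethylxanthine and on retinas, which could not be tied to these cells. Each group is a single library, so no difference could be checked against replicates, and every interval below covers counting error alone. In such bulk RNA, fewer cells that express a gene and less of its RNA per cell cannot be told apart.

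SLCO genes encode organic anion transporting polypeptides (OATPs), membrane proteins that carry bulky amphipathic compounds into cells. Their cargo includes steroid sulfates, thyroid hormones, prostaglandins, bile acids and many drugs. OATP4A1, the product of SLCO4A1, is found in many tissues and carries thyroid hormones, prostaglandins and estrone sulfate. OATP1B3, the product of SLCO1B3, is best known from hepatocytes, and OATP4C1, the product of SLCO4C1, from the kidney. Antisense RNAs are transcribed from the strand opposite to a gene, and some of their exons can cover exons of that gene.

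Totals of 12375999 fragments (vector) and 13810668 fragments (YWHAB) were worked out from the deposited values. YWHAB itself was at 239 FPKM (fragments scaled to gene length and library total) with the vector and 336 FPKM with over-expression, a ratio of 1.41 (95% counting interval 1.36 to 1.45). Among 9 breast cancer line markers, 7 reached a mean of at least 1 FPKM. Vimentin (VIM) was at 736 FPKM (vector) and 861 FPKM (YWHAB) and CD44 at 697 and 998 FPKM. KRT8 was at 651 and 751 FPKM and KRT18 at 249 and 325 FPKM. ERBB2 was at 32.8 and 49.97 FPKM, from 883 and 1499 fragments. EPCAM had 17 and 24 fragments and MUC1 29 and 46. The estrogen receptor ESR1 had 7 and 1 fragments and the progesterone receptor PGR 1 and 0. Of 8 adipocyte markers, ADIPOQ and LEP had 0 fragments in both libraries, and the summed level of the list was 30.3 FPKM (vector) and 22.2 FPKM (YWHAB), most of it from PPARG and LPL. The 10 retina markers summed to 1.36 and 1.38 FPKM, with RCVRN, OPN1MW and CRX at 0 in both.

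SLCO4A1 was the most abundant SLCO gene and the only transporter of the 5 past the 2-fold rule, which is a difference of at least 1 in log2(FPKM + 1) at a mean of at least 1 FPKM. It was at 46.4 FPKM in the vector library, from 809 fragments, with a 95% counting interval of 43.3 to 49.7. In the YWHAB library it was at 119 FPKM, from 2315 fragments, with an interval of 114 to 124. The ratio of the libraries was 2.56 (95% counting interval 2.37 to 2.78) and the log2 difference 1.34. The intervals of the levels did not overlap, and the gene ranked 12 of 11518 protein-coding genes in log2 difference. The gene (ENSG00000101187) lies on the plus strand of chromosome 20 from 62642445 to 62685785 in GRCh38 and has 9 annotated transcripts in GENCODE 29, which the gene values do not separate.

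SLCO4A1-AS1 was higher in the YWHAB library too, and had the highest log2 difference of the 364 antisense genes compared. It was at 7.58 FPKM (90 fragments, interval 6.10 to 9.32) in the vector library. In the YWHAB library it was at 24.2 FPKM (321 fragments, interval 21.7 to 27.0). The ratio was 3.20 (95% counting interval 2.52 to 4.08) and the log2 difference 1.56, again with no overlap of the 2 level intervals. Over all 13420 genes compared 0.686% were 2-fold higher and 1.97% lower, or 2.66% in either direction. Of protein-coding genes 0.295% were 2-fold higher and 1.45% lower (1.75% in either direction), and of antisense genes 1.10% were higher and 3.02% lower (4.12% in either direction). Of the 6 genes 4 reached a mean of at least 1 FPKM, and 2 of these were 2-fold higher. Because the genes were chosen from this same contrast, nothing is read from that count.

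**Figure D1:**
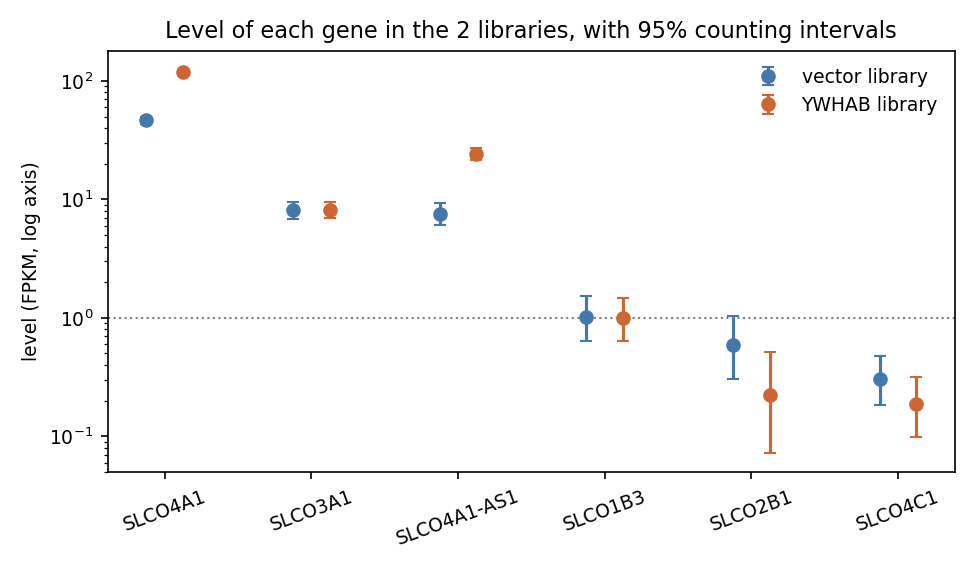
Level of each gene in FPKM on a log axis, with 1 point per library (blue, vector library; orange, YWHAB library) and bars for 95% counting intervals. SLCO4A1 (46.4 and 119 FPKM) and SLCO4A1-AS1 (7.58 and 24.2 FPKM) stand apart between the libraries, while the bars of the other 4 genes overlap; the dotted line marks 1 FPKM.

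The pair shares exon sequence, so how strand was used in counting decides what the values of each gene hold. SLCO4A1-AS1 (ENSG00000232803) lies wholly inside SLCO4A1, on the minus strand of chromosome 20 from 62663019 to 62666724, and is annotated with 3 transcripts. Its exons share 346 bases with those of SLCO4A1, which is 22.6% of its own 1534 exon bases and 8.54% of the 4051 of SLCO4A1. The shared bases fall in coding exons 6 and 7 of the 12 exons of the longest protein-coding transcript, SLCO4A1-201. Exon 6 is covered by 1 of the 3 antisense transcripts and exon 7 by all 3. Both exons are shown on the plus strand of GRCh38, taken from GENCODE 29, because any fragment that lies in them can come from either RNA; capitals mark the bases that the antisense exons cover.
SLCO4A1 exon 6, chr20:62664934-62665088: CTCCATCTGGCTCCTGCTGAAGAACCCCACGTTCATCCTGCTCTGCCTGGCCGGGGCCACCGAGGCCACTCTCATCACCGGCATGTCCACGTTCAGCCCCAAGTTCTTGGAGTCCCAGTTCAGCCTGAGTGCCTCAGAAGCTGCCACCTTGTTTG
SLCO4A1 exon 7, chr20:62666380-62666575: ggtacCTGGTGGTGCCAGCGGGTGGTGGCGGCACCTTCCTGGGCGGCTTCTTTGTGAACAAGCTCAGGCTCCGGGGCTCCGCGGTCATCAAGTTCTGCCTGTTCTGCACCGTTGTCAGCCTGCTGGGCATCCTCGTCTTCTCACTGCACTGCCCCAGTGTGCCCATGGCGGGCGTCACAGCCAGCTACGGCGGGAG
In exon 6 all 155 bases are covered and in exon 7 191 of 196. Whether strand was used in counting was not stated in the labels, so fragments of the 2 genes cannot be told apart in these bases. The other exon bases of SLCO4A1-AS1 lie in introns of SLCO4A1. Whether fragments from unspliced SLCO4A1 RNA are among the counts of SLCO4A1-AS1 was not tested.

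The antisense RNA made up a similar part of the pair in both libraries. Of the pair's fragments, SLCO4A1-AS1 held 90 of 899 in the vector library, or 10.0% (exact 95% interval 8.13 to 12.2). In the YWHAB library it held 321 of 2636, or 12.2% (10.95 to 13.5). These shares overlap in their intervals. The ratio of SLCO4A1-AS1 over that of SLCO4A1 was 1.25, with an exact conditional interval of 0.969 to 1.61, so a difference between the ratios was not detectable at this depth. Among 200 pairs of an antisense gene and a protein-coding gene on the other strand that share exon bases and were both compared, SLCO4A1-AS1 with SLCO4A1 was the 1 pair with both genes 2-fold higher, and TM4SF19-AS1 with TM4SF19 was the 1 pair with both 2-fold lower. Over the 200 pairs the antisense gene was 2-fold higher in 2 and the protein-coding gene in 2. SLCO4A1 and SLCO4A1-AS1 were chosen from this same contrast, so nothing is read from their place among the pairs. TM4SF19 was named after its values were seen.

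**Figure D2:**
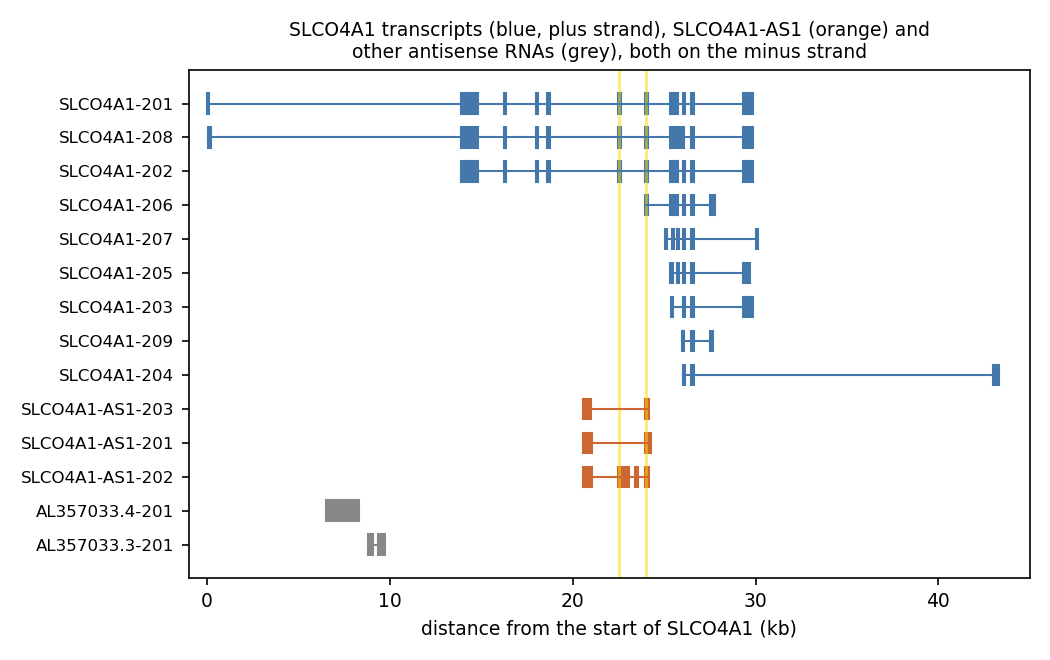
Exons (boxes) and introns (lines) of the 9 SLCO4A1 transcripts (blue), of the 3 SLCO4A1-AS1 transcripts (orange) and of 2 other antisense RNAs (grey), drawn to scale by distance in kb from the start of SLCO4A1. The yellow bands mark exons 6 and 7, where SLCO4A1-AS1 covers coding sequence, while the grey RNAs share no exon base with SLCO4A1.

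Both other measured antisense RNAs inside SLCO4A1 were also higher in the YWHAB library, at low levels. AL357033.4 (ENSG00000277496, listed as SLCO4A1-AS2 in the newer table of gene names) was at 1.74 FPKM from 39 fragments with the vector and at 3.37 FPKM from 84 with over-expression. Its ratio was 1.93 (95% counting interval 1.31 to 2.90). AL357033.3 was at 1.45 and 3.18 FPKM from 11 and 27 fragments, a ratio of 2.20 (1.06 to 4.91). Neither passed the 2-fold rule, with log2 differences of 0.67 and 0.77. Both lie in the first intron of SLCO4A1-201, and their levels were 3.76% and 3.12% of that of SLCO4A1 with the vector and 2.83% and 2.67% with over-expression. Whether fragments from unspliced SLCO4A1 RNA are among their counts was not tested.

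The antisense RNA starts within SLCO4A1, 24279 bases after the start of that gene in GENCODE 29. The set of RefSeq promoters used here (GRCh38.p14) held 5 of the 6 genes and had no entry for SLCO4A1 itself, so the promoter of SLCO4A1 was not examined. The promoter of SLCO4A1-AS1, shown because both RNAs of the pair were higher, covers 250 bases before and 50 after its RefSeq start and is shown on the minus strand; capitals mark the letters CACGTG, an E-box.
SLCO4A1-AS1 promoter, chr20:62666572-62666871: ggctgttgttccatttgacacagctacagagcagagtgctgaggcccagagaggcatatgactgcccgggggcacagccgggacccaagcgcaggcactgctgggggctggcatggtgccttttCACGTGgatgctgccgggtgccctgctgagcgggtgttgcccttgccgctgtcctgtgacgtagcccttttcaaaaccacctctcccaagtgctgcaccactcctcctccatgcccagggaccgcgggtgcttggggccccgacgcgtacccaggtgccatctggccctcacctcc
The E-box lies with its first base 126 bases before the RefSeq start, and 7.26% of 35116 RefSeq promoters of this length hold these letters. The GENCODE 29 start of SLCO4A1-AS1, at base 62666724, differs from the RefSeq start and lies inside the promoter shown. Part of that promoter is therefore within the gene as GENCODE draws it. None of 6 other motifs, searched on both strands, was in this window. The AP-1 letters TGANTCA are held by 7.71% of all promoters and the CRE letters TGACGTCA by 1.85%. The GC box GGGCGG is held by 44.95%, the TATA box TATAAA by 11.5%, the forkhead letters TGTTTAC by 3.42% and the TEAD letters GGAATG by 14.0%. The window has 64.7% G and C against a median of 58.7%. A match describes the letters alone, and 4 bases of the window lie in exon 7 of SLCO4A1.

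SLCO3A1, which encodes a broadly expressed prostaglandin and thyroxine carrier, was level between the libraries within counting error. It was at 8.06 FPKM (159 fragments) with the vector and 8.14 FPKM (179 fragments) with over-expression, a ratio of 1.01 (95% counting interval 0.810 to 1.26). In the vector library SLCO3A1 and SLCO4A1-AS1 (7.58 FPKM) had overlapping intervals, and in the YWHAB library SLCO4A1-AS1 (24.2 FPKM) was the higher of the 2. SLCO3A1 (ENSG00000176463) lies on the plus strand of chromosome 15 from 91853695 to 92172435 in GRCh38.

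SLCO1B3 was near 1 FPKM in both libraries, and the remaining members were below the filter. SLCO1B3 (ENSG00000111700, plus strand of chromosome 12 from 20810702 to 20916911) was at 1.02 FPKM from 22 fragments with the vector and 0.992 FPKM from 24 with over-expression, a ratio of 0.978 (0.525 to 1.83). Cancer cells can use a shortened form of this gene from another start, which the gene values do not separate. Its exons share 1930 of 3542 bases with AC011604.2, a read-through gene on the same strand that was listed at 0 in both libraries, so its value is uncertain. Of the markers of liver, where this gene is best known, APOB, FGA and CYP3A4 had 0 fragments in both libraries and ALB had 2 and 3. SERPINA1 was the 1 of 9 liver markers that reached a mean of 1 FPKM, at 33.9 and 34.8 FPKM from 628 and 720 fragments.

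SLCO2B1, whose product carries steroid sulfates and drugs in intestine and liver, was at 0.594 FPKM from 12 fragments with the vector and 0.222 FPKM from 5 with over-expression. Its ratio was 0.373 with an interval of 0.103 to 1.14, and a difference was not detectable at this depth. SLCO4C1 was at 0.303 FPKM from 19 fragments and 0.186 FPKM from 13, a ratio of 0.613 (0.278 to 1.31). Both genes had overlapping intervals between the libraries. Neither reached a mean of 1 FPKM. SLCO2B1 (ENSG00000137491) lies on the plus strand of chromosome 11 from 75100563 to 75206549 and SLCO4C1 (ENSG00000173930) on the minus strand of chromosome 5 from 102233986 to 102296549.

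The order of the levels in the vector library was SLCO4A1, SLCO3A1, SLCO4A1-AS1, SLCO1B3, SLCO2B1 and SLCO4C1. The neighbours SLCO3A1 and SLCO4A1-AS1, SLCO1B3 and SLCO2B1, and SLCO2B1 and SLCO4C1 had overlapping counting intervals there. In the YWHAB library SLCO4A1-AS1 came second, and of the neighbours SLCO2B1 and SLCO4C1 alone overlapped. A level depends on the length used, and the deposited values use about the mean length of a gene's transcripts (1408 nt for SLCO4A1). Over the longest protein-coding transcript (2776 nt for SLCO4A1), or for SLCO4A1-AS1 its longest transcript, the levels of SLCO4A1 are 23.5 and 60.4 FPKM and those of SLCO3A1 2.51 and 2.53 FPKM. On that scale, added after the values were seen, SLCO4A1-AS1 (5.12 and 16.4 FPKM) is above SLCO3A1 in both libraries, and SLCO4C1 (0.288 and 0.176 FPKM) is above SLCO2B1 (0.216 and 0.0806 FPKM).

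In the whole SLCO family of 12 human genes, SLCO4A1 held most of the signal. Its share of the summed FPKM was 81.9% with the vector and 92.5% with over-expression. The other 11 genes together gave 10.3 and 9.71 FPKM, from 220 and 227 fragments, a ratio per library total of 0.925 (95% counting interval 0.765 to 1.12). SLCO1A2, SLCO1B7 and SLCO1C1 had 0 fragments in both libraries, which allows up to 0.152, 0.192 and 0.136 FPKM (vector) and 0.136, 0.172 and 0.122 FPKM (YWHAB), taking a floor of 3 fragments and the mean annotated transcript length. SLCO2A1, the main prostaglandin importer of the family, had 2 and 1 fragments, SLCO5A1 5 and 3, SLCO6A1 1 and 0 and SLCO1B1 0 and 2. Of the family 3 genes were measured at a mean of at least 1 FPKM. Of these 1 was 2-fold higher and 0 lower, against 0.686% and 1.97% of all genes compared. The higher gene was SLCO4A1, chosen from this same contrast, so nothing is read from that count. The median log2 difference of the 3 was 0.01 against 0.03 over all genes compared.

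**Figure D3:**
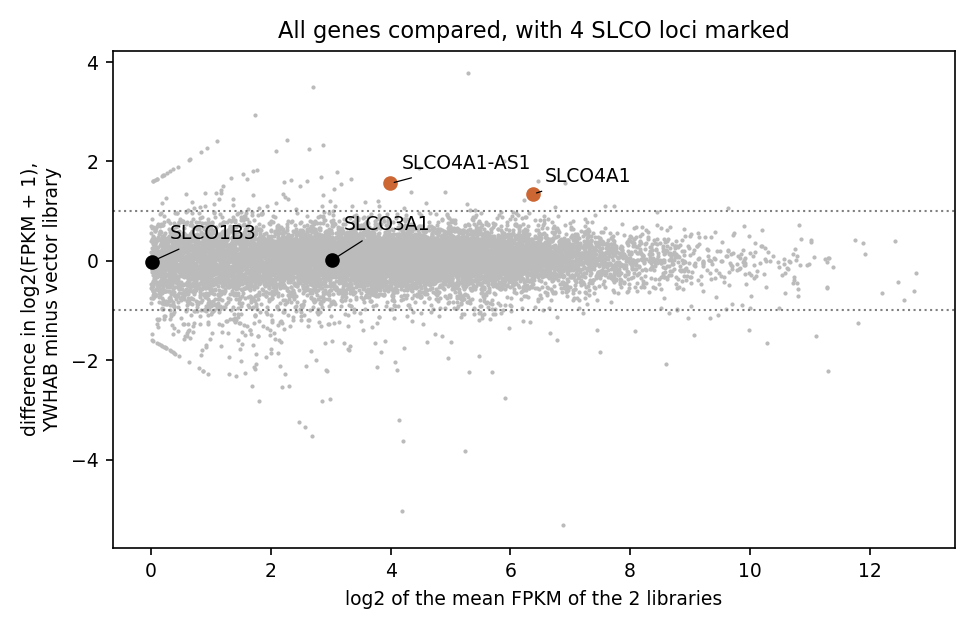
Difference in log2(FPKM + 1) between the YWHAB and the vector library against log2 of the mean FPKM, for 13420 genes (grey) and the 4 genes of interest that reached a mean of 1 FPKM. SLCO4A1 (1.34) and SLCO4A1-AS1 (1.56), in orange, lie above the dotted 2-fold line, and SLCO3A1 (0.01) and SLCO1B3 (-0.02), in black, lie near 0.

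Among the genes around SLCO4A1, the ratios nearest to its own were those of noncoding RNAs and of LAMA5. Of 57 annotated genes within 500000 bases, 22 were measured, 3 were 2-fold higher and 0 lower, against 0.686% and 1.97% of all genes compared. The 3 were SLCO4A1-AS1, the noncoding LINC00659 and LAMA5, a laminin chain. Without SLCO4A1-AS1, which was chosen from these same values, 2 of 21 were 2-fold higher. The median log2 difference of the 22 was 0.27 (0.26 without SLCO4A1-AS1) against 0.03 over all genes. LINC00659, 88.3 kb downstream, was at 2.05 FPKM from 24 fragments and 5.59 FPKM from 73, a ratio of 2.73 (1.70 to 4.52). BX640514.2, a noncoding RNA 39.3 kb upstream, was at 5.38 and 11.1 FPKM, a ratio of 2.06 (1.59 to 2.70) and a log2 difference of 0.92. LAMA5, 275.1 kb upstream, was at 135 and 289 FPKM, a ratio of 2.14 (2.05 to 2.24).

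In 14 of the 22 genes the whole counting interval was above a ratio of 1 and in 2 it was below, against 27.8% and 21.8% of all genes compared. Without SLCO4A1-AS1 it was above in 13 of 21 and below in 2. The 13 still hold AL357033.4 and AL357033.3, which lie inside SLCO4A1 and whose counts may include its unspliced RNA, which was not tested. The 14 protein-coding neighbours had ratios from 0.721 (OSBPL2, a sterol-binding protein) to that of LAMA5, and a median log2 difference of 0.21. MRGBP, a chromatin factor, had a ratio of 1.29 (1.20 to 1.38), CABLES2 1.25 (1.09 to 1.44) and OGFR, the opioid growth factor receptor, 1.25 (1.18 to 1.33). TCFL5 had a ratio of 1.23, ADRM1, a proteasome receptor, 1.20, DIDO1 1.17, MTG2 1.16, PSMA7, a proteasome subunit, 1.15 and GID8 1.05. RPS21, a ribosomal protein, was at a ratio of 1.01, SS18L1 at 0.999 and SLC17A9, the vesicular nucleotide transporter, at 0.891 (0.849 to 0.934). The remaining noncoding neighbours were AL354836.1 (1.43), OGFR-AS1 (1.12) and AL117379.1 (0.815), each with an interval that held equal levels. YWHAB lies on the same chromosome, from 44885676 to 44908532, while SLCO4A1 lies from 62642445 to 62685785. The 320 protein-coding genes compared on chromosome 20 had a median log2 difference of 0.04, rank 12 of 23 chromosomes. Of these genes 4 were 2-fold higher, SLCO4A1 and LAMA5 among them, against 0.295% of all protein-coding genes compared. SLCO4A1 was chosen from this same contrast, so nothing is read from that count. This comparison was added after the values were seen.

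**Figure D4:**
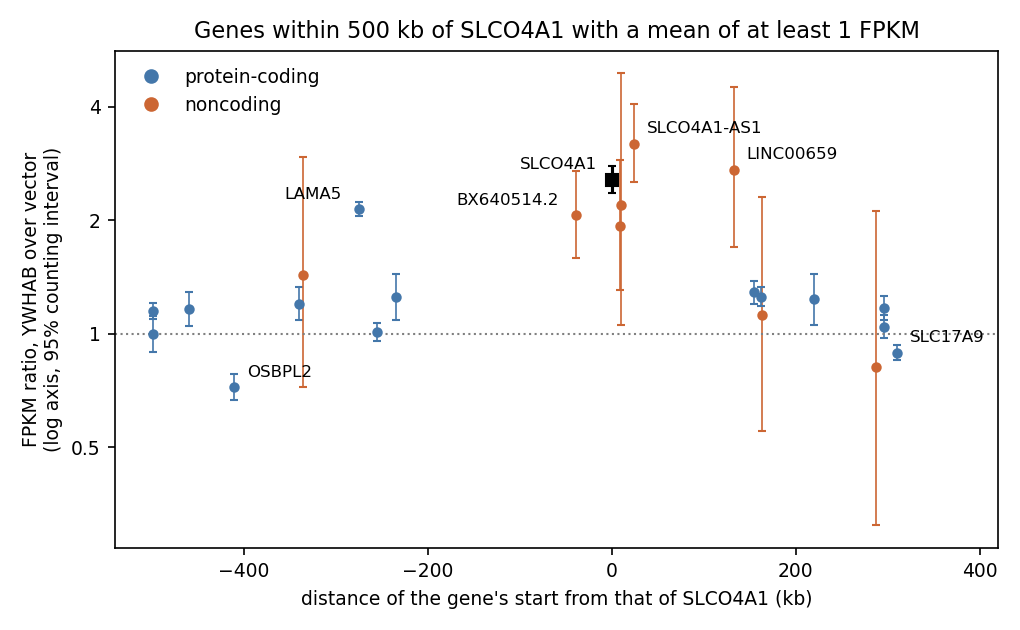
Ratio of FPKM (YWHAB over vector library, log axis) of SLCO4A1 (black square) and of the 22 measured genes within 500000 bases of it, by distance of their start from that of SLCO4A1; bars are 95% counting intervals. SLCO4A1 (2.56), SLCO4A1-AS1 (3.20) and LINC00659 (2.73) are the highest, and OSBPL2 (0.721) is the lowest.

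In lists of other organic ion transporters, of genes that handle the same cargo and of transporter gene regulators, 0 genes were 2-fold higher. Of all protein-coding genes compared, 0.295% were 2-fold higher and 1.45% lower. At such shares, lists this small would hold few called genes, so nothing is read from the counts. Of 7 measured SLC22 genes, which encode organic anion, cation and carnitine carriers, 0 were 2-fold higher and 1 was lower, with a median log2 difference of -0.16. The lower gene was SLC22A31, an orphan member, at 6.85 FPKM from 95 fragments and 1.16 FPKM from 18. SLC22A15 was at 11.2 and 7.23 FPKM, SLC22A18 at 8.04 and 5.62 FPKM and SLC22A3, an organic cation carrier, at 3.67 and 3.18 FPKM, with the vector value first.

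Among 13 efflux pumps of the ABC family, which move organic anions and drugs out of cells, 7 were measured, and 0 passed the rule in either direction. The median log2 difference was 0.13. ABCC4, an exporter of prostaglandins and cyclic nucleotides, was at 10.7 and 15.6 FPKM, a ratio of 1.46 (1.28 to 1.67). ABCC5 was at 11.5 and 16.5 FPKM, ABCC1 at 30.7 and 38.3 FPKM and ABCC6 at 1.27 and 0.889 FPKM.

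The genes of thyroid hormone handling, one of the cargoes of OATP4A1, were mixed. Of 11 measured genes 0 passed the rule, and the median log2 difference was -0.02. SLC7A5, the light chain of an amino acid carrier that also takes thyroid hormones, was at 35.3 and 61.6 FPKM, a ratio of 1.75 (1.63 to 1.87). Its heavy chain SLC3A2 was at 184 and 135 FPKM, a ratio of 0.735 (0.693 to 0.780), so the 2 chains lay on opposite sides of equal levels. The thyroid hormone receptor THRB was at 1.31 and 0.740 FPKM, and RXRA, a partner of nuclear receptors, at 20.1 and 26.9 FPKM.

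Prostaglandin genes lay on both sides of equal levels. Of 12 measured genes 0 passed the rule and the median log2 difference was 0.00098; the whole counting interval was above a ratio of 1 for 3 and below it for 5, against 27.8% and 21.8% of all genes compared. PLA2G4A, the phospholipase that frees arachidonic acid, was at 7.28 and 3.38 FPKM, a ratio of 0.464 (0.354 to 0.605), PTGS2 (cyclooxygenase 2) at 49.1 and 29.3 FPKM, and the prostacyclin receptor PTGIR at 2.19 and 0.891 FPKM. The exporter ABCC4, which this list also holds, was higher, with the values given among the efflux pumps. In a broad list on steroid sulfate handling, which also holds HSD17B genes and estrogen receptors, 10 genes were measured. Of these 0 passed the rule, with a median log2 difference of -0.29. The whole counting interval was below a ratio of 1 for 6 of them and above it for 0, against the same shares of all genes. HSD17B7 was at 15.8 and 9.78 FPKM, HSD17B8 at 5.33 and 3.79 FPKM, SUMF1, which activates sulfatases, at 18.9 and 14.1 FPKM and PAPSS2, which makes the sulfate donor, at 61.5 and 47.8 FPKM.

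Of 11 measured nuclear receptors and other factors known to regulate drug transporter genes 0 passed the rule, with a median log2 difference of -0.04. HIF1A, a subunit of the hypoxia factor, was at 277 and 202 FPKM. The glucocorticoid receptor NR3C1 was at 48.8 and 64.8 FPKM, NFE2L2, the oxidative stress factor NRF2, at 57.0 and 46.1 FPKM, and NR1I3 at 1.41 and 0.965 FPKM.

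**Figure D5:**
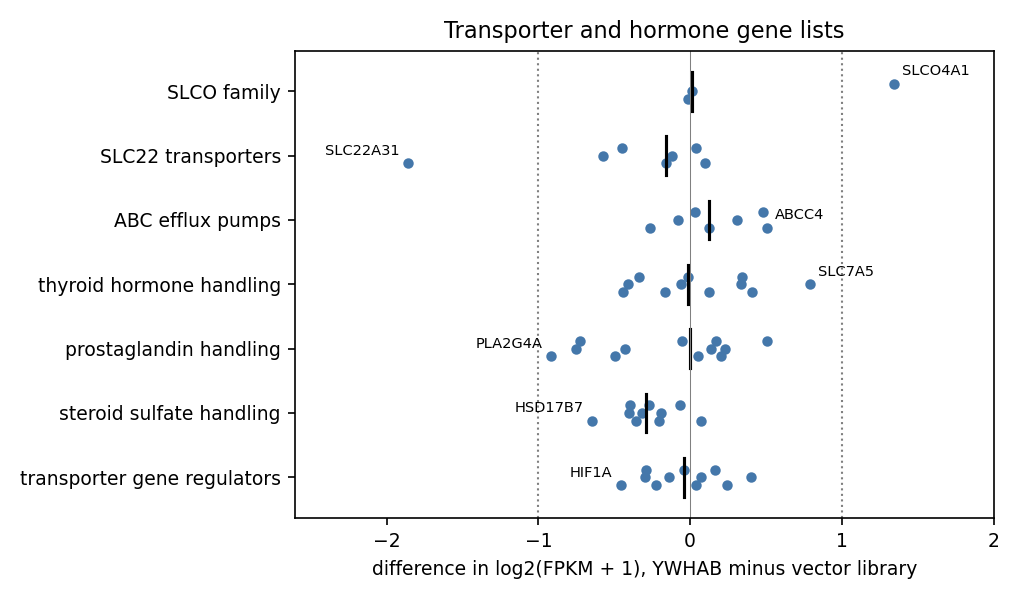
Difference in log2(FPKM + 1), YWHAB minus vector library, of each gene with a mean of at least 1 FPKM in 7 gene lists; each point is a gene, black bars are list medians and dotted lines mark the 2-fold rule. SLCO4A1 (1.34) is the 1 point above the rule and SLC22A31 (-1.86) the 1 below.

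The protein-coding genes nearest to SLCO4A1 in both values were taken as the 5 with the smallest distance over log2(FPKM + 1) in the 2 libraries, which is a likeness over 2 samples only. They were PLXNA1, a semaphorin receptor, at 44.5 and 106 FPKM (distance 0.176), FAM20C, a secretory pathway kinase, at 43.1 and 133 FPKM (0.190), ANKRD28 at 53.7 and 105 FPKM (0.273), and the replication helicase subunits MCM5 at 53.8 and 100.1 FPKM (0.323) and MCM3 at 53.4 and 98.6 FPKM (0.334).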

How the data were processed

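RNA was sequenced from 1 vector and 1 YWHAB library. The authors deposited FPKM values for 60774 gene identifiers, per the labels, and HISAT2 2.0.5 and build hg38 are named in the submitters' processing notes. The sources used here do not give the counter, annotation or use of strand. GENCODE 29 (GRCh38) gave symbols to 96.3% of identifiers. Fragments were worked out from the FPKM values: the commonest ratio of the 2 columns, and lengths near GENCODE means, gave both totals, and 26769 of 26770 genes above 0 came out as a whole count over a whole length (relative tolerance 1e-12). Ratios have exact 95% Clopper-Pearson intervals from the split of fragments, and levels exact Poisson ones. PCR copies are not independent, so intervals and floors (3 fragments) cover counting error only. The 13420 genes averaging 1 FPKM or more were compared as log2(FPKM + 1), which shrinks differences of low genes, and no test was run. The named genes are the members, the SLCO family, the 4 largest absolute differences per list, measured neighbours, and the 5 genes nearest in both values. Cell type markers were named as well. Members and lists were chosen with earlier results of these data known. The 6 alternatives used TPM scaling, a pseudocount of 0.1, a minimum mean of 5 FPKM, no minimum, a median ratio of 0, and a length and GC correction (spline of 4 degrees of freedom). Scripts were tested on simulated data (Python 3.11.15, SciPy 1.17.1).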

Additional observations from a re-analysis of the deposited data

How the results depend on the processing

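The differences of SLCO4A1 (1.30 to 1.39) and SLCO4A1-AS1 (1.52 to 1.66) stayed past the 2-fold rule under all 6 alternatives. The settings with no minimum and with a minimum mean of 5 FPKM change only which genes are counted, so they could not move these differences. No alternative stands in for replicates. The count of all genes that were 2-fold higher (92 as reported) was 222 with a pseudocount of 0.1 FPKM, 155 with no filter, 40 at a mean of at least 5 FPKM and 173 on the TPM scale. The count that was 2-fold lower (265) was 471 with a pseudocount of 0.1 FPKM and 112 at a mean of at least 5 FPKM. Among the lists, genes near SLCO4A1 that were 2-fold higher numbered 5 with a pseudocount of 0.1 FPKM, prostaglandin genes that were 2-fold lower 2, thyroid hormone genes that were 2-fold lower 1 with no filter and 1 on the TPM scale, and SLC22 genes that were 2-fold lower 0 at a mean of at least 5 FPKM. The difference of SLCO2B1, whose mean stays below 1 FPKM, was -1.11 with a pseudocount of 0.1 FPKM, and the interval of its ratio was 0.159 to 0.810 if its length were 3262 nt. The causes were not tested. Depth limits the 2 genes under 1 FPKM, with 5 to 19 fragments per library. No paired analysis was possible because each group has 1 library.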
